A study of Mus musculus with 72 samples.

Results

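The T cell genes described here are 10 genes whose products mark T lymphocytes and were measured in liver and lung of mice after whole body X-rays. They are *Cd3d*, *Cd3e*, *Cd3g*, *Lck*, *Cd4*, *Cd8a*, *Cd8b1*, *Cd2*, *Cd5* and *Thy1*. They were found on the mRNA arrays by matching the transcript identifier of each probe to RefSeq gene symbols, which gave 15 probes of 56605 for 10 of the 23787 genes named in this way, and all 10 genes were measured well enough to be tested in both tissues. Levels 48 h after 0 (sham), 1, 2, 4, 8 or 12 Gy were compared in female C57BL/6 J mice aged 6 to 8 weeks, with 3 mice per dose, 18 liver arrays and 18 lung arrays. All animals were of that 1 strain, sex and age range, the X-rays were given to the whole body at 1.05 Gy per min in a small animal irradiator, and RNA came from tissue pieces, so that each value is an average over every cell type in the piece. Mouse numbers 1, 11 and 21 were the sham animals in each tissue, and the labels do not say whether a number names the same animal in liver and in lung.

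T cells recognise peptides through the T cell receptor, which signals through the CD3 chains, encoded by *Cd3d*, *Cd3e* and *Cd3g*. The kinase encoded by *Lck* sits on the inner face of the co-receptors CD4 and CD8 and starts that signal by phosphorylating the CD3 chains. CD4 marks helper and regulatory T cells, and CD8, a pair of chains encoded by *Cd8a* and *Cd8b1*, marks cytotoxic T cells. *Cd2* encodes an adhesion molecule, *Cd5* an inhibitory receptor that sets the strength of receptor signalling, and *Thy1* a small anchored surface protein. Several of these genes are not restricted to T cells. *Cd2* is also used by B cells and natural killer (NK) cells, *Lck* by NK cells, *Cd4* and *Cd8a* by some dendritic cells, and *Thy1* by fibroblasts and other stromal cells. Lymphocytes are among the most radiosensitive cells of the body and die by apoptosis within hours to days of exposure, while most parenchymal cells of liver and lung do not. In whole tissue RNA, fewer cells of a type and less RNA per cell cannot be told apart.

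Levels are given as normalized log2 intensity, in which a difference of 1 is a doubling. Each dose was compared with the 3 sham arrays of its tissue by limma, and a gene was called at an absolute log2 change above 1 and an adjusted p below 0.05 over all probes tested. The 5 doses of a tissue share those sham arrays. The tissue labels matched the markers of the main cell types, since 15 of 15 hepatocyte genes were higher in liver at 0 Gy and 11 of 12 alveolar and airway genes were called higher in lung. *Cdkn1a*, the cell cycle inhibitor that p53 induces after DNA damage, was called higher at each of the 5 doses in both tissues, by 2.58 to 6.33 in liver and 1.78 to 3.64 in lung. Arrays lay on 5 slides in order of tissue and dose. In lung the 0 and 1 Gy arrays shared a slide, the 2 and 4 Gy arrays and 2 of the 3 arrays at 8 Gy shared the next, and the last 8 Gy array and the 12 Gy arrays were on the fifth, scanned on another day, so that slide and dose cannot be told apart for 2 to 12 Gy against 0 Gy in lung. In liver the 0 and 1 Gy arrays and 2 of the 2 Gy arrays shared a slide, the other 2 Gy array, all 4 and 8 Gy arrays and 1 of the 12 Gy arrays shared another, and the last 2 arrays at 12 Gy lay on the slide of the lung controls.

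The lung array labelled 0 Gy mouse 21 stood apart in the T cell genes before any dose was considered. It read above the higher of the other 2 sham lungs for all 10 genes, by 0.34 for *Cd2* to 2.84 for *Cd8a*, with a median of 1.46. It also read high for genes used by the thymus, a list chosen after the values were seen. *Dntt*, which encodes the enzyme that adds bases to rearranging receptor genes, was at 13.22 in this array and between 4.18 and 8.22 in the other 17 lung arrays. *Rag2*, part of the recombinase that rearranges those genes, was at 8.73 against 3.53 to 6.43, *Ccr9*, a homing receptor of thymocytes, at 11.03 against 4.67 to 8.00, *Prss16*, a protease of thymic epithelium, at 10.52 against 4.43 to 6.38, and *Ccl25*, the ligand of CCR9, at 12.35 against 9.45 to 10.22. With *Aire*, at 5.59 against 4.27 to 5.41, 6 of the 10 genes on the list were above all 17 other lung arrays. *Foxn1*, *Psmb11*, *Ptcra* and *Rag1* were not. *Aire* was well above background on 0 of the 17 others. In liver *Dntt* and *Ccl25* were well above background on 18 of 18 arrays and *Aire* on 12. The summed level of the list was 14.21 in mouse 21, and 10.18 and 10.61 in the other 2 sham lungs. Among the other arrays, the highest levels of *Dntt* and *Ccr9*, 8.22 and 8.00, were those of sham mouse 11, beside 5.83 and 6.95 in sham mouse 1. The counts of calls and the 12 Gy changes of the T cell genes in lung are therefore given also without mouse 21. Those fits keep mouse 11, and the part that thymus RNA has in the results, with or without mouse 21, was not tested.

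**Figure D1:**
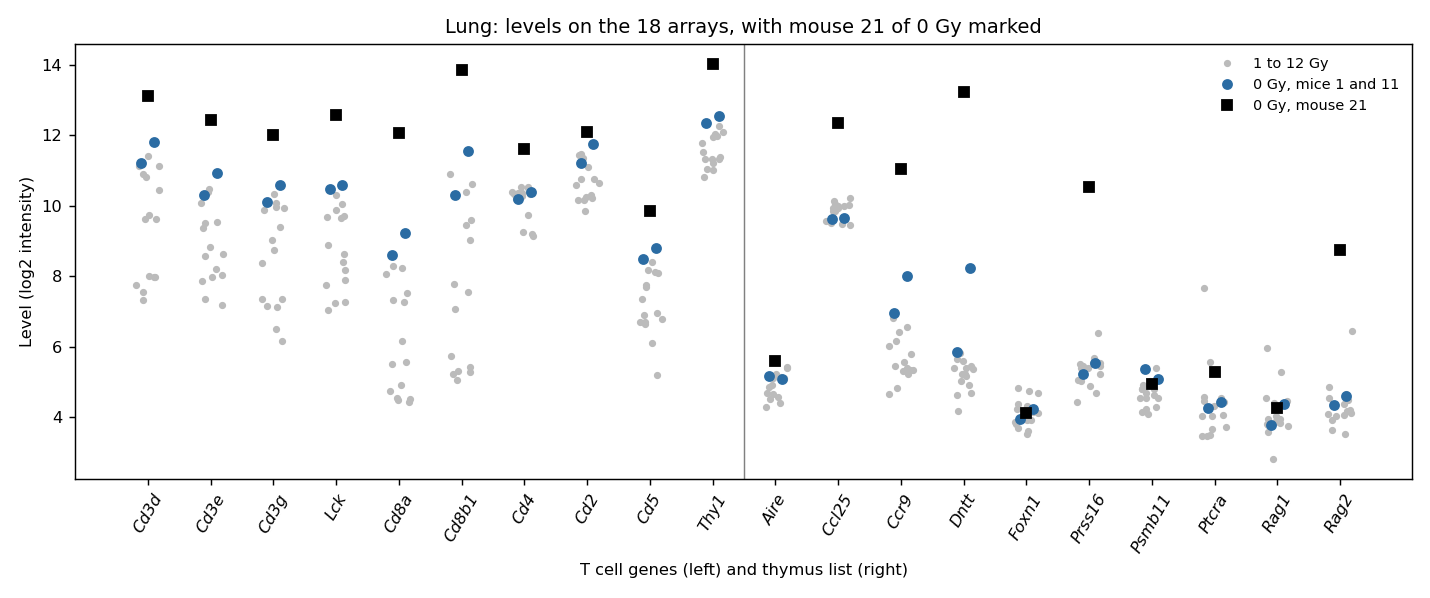
Levels of the T cell genes and of the thymus list in the 18 lung arrays (normalized log2 intensity), with the 3 sham arrays marked separately and 1 point per array. Mouse 21 lies above both other sham lungs in all 10 T cell genes and above the 17 other arrays in 6 of the 10 thymus genes.

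The CD3 genes lie side by side on mouse chromosome 9, and the sequence just before their starts is shown because the 3 genes are described together below. The sequences are the 250 bases before the RefSeq gene start in GRCm38.p6, read 5′ to 3′ on the strand of the gene. Capitals mark the motifs searched on both strands, none of which overlaps another in these windows. The motif AGGAAG is the core bound by ETS proteins such as ETS1, which T cells hold in high amounts. The motif TGTGGT is the core bound by RUNX proteins, which silence or maintain the co-receptor genes. E-boxes, bound by E proteins of early lymphocytes, were searched in the symmetric form CAGCTG as well as in the asymmetric form of the same length, spelled CACCTG. The motif AGATAA is the core bound by GATA proteins such as GATA3, which directs helper T cells.
*Cd3d*, chr9:44981536-44981785, plus strand: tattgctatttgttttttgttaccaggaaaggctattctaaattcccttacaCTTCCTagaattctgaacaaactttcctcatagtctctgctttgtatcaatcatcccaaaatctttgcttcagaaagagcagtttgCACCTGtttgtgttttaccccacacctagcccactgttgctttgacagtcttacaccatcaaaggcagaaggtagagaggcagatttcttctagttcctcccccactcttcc
*Cd3e*, chr9:45009612-45009861, minus strand: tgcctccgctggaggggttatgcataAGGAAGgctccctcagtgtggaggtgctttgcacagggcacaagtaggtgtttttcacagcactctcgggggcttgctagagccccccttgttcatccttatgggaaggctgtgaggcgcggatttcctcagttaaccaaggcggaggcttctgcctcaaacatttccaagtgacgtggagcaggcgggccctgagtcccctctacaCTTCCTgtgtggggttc
*Cd3g*, chr9:44980432-44980681, minus strand: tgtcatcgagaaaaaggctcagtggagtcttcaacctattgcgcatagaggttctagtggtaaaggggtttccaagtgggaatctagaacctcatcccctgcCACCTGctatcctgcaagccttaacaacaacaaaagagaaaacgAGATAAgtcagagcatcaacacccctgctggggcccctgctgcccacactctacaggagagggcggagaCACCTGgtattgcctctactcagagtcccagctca
*Cd8a*, chr6:71373177-71373426, plus strand: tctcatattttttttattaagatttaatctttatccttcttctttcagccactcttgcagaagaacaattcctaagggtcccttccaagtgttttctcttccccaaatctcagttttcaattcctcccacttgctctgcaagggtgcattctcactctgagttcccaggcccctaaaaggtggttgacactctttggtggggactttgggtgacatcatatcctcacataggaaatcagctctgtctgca
*Cd8a*, the gene with the second largest fall in lung, is shown beside them because its window holds none of the 5 motifs. Promoters were available for 6 of the 10 genes (*Cd3d*, *Cd3e*, *Cd3g*, *Cd5*, *Cd8a* and *Lck*, the last with 2 starts), 7 in all. AGGAAG was in 5 of the 7 and in 29.5% of 32851 promoters of the same length, and CACCTG was in 4 of the 7 and in 17.2%. TGTGGT was in 1 of the 7 (14% of all promoters), AGATAA in 1 (9.99%) and CAGCTG in 0 (13%). These matches are a description of the letters in the windows.

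Before irradiation the T cell genes were higher in lung than in liver, with the exception of *Cd4*. In the 36 arrays normalized together, 9 of the 10 genes were called higher in sham lung and 1, *Cd4*, was called lower, where 18% of all probes tested were called higher in lung and 16.8% lower. *Cd2* was at 10.70, 11.28 and 11.66 in lungs of mice 1, 11 and 21 and at 7.28, 7.21 and 7.22 in livers, a difference of 3.98 ± 0.25 (SE, adjusted p = 6.2e-14). *Cd8b1* differed by 3.84 ± 0.55 (SE, adjusted p = 8.43e-07), from 7.16, 8.21 and 7.62 in liver to 9.71, 11.08 and 13.72 in lung. The arrays of the tissues did not overlap for either gene. Differences for the others ran from 1.91 for *Cd3e* to 3.39 for *Cd8a*, with *Thy1* at 3.08, *Cd3d* at 2.84, *Lck* at 2.69, *Cd3g* at 2.42 and *Cd5* at 2.03. *Cd4* went the other way, at 11.64, 11.83 and 11.71 in liver and 9.59, 9.81 and 11.15 in lung, lower in lung by -1.55 ± 0.31 (SE, adjusted p = 8.75e-05). Without mouse 21 the calls were again 9 higher and 1 lower.

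In lung the T cell genes fell with dose, and at 12 Gy all 10 were called lower than in sham lung. None was called at 1 Gy, only *Cd3e* at 2 Gy, 8 of 10 at 4 Gy (all but *Cd2* and *Cd4*) and 9 of 10 at 8 Gy (all but *Cd4*). Called lower among all probes tested were 0.0114% at 1 Gy, 0.375% at 2 Gy, 1.22% at 4 Gy, 1.99% at 8 Gy and 4.27% at 12 Gy, while 3.02% were called higher at 12 Gy, where no T cell gene was. The median log2 change of the 10 genes was -0.84, -1.25, -2.29, -3.38 and -3.70 from 1 to 12 Gy, against medians between 0.0061 and 0.094 over all probes. At 1 Gy 6 of the 10 genes were below an unadjusted p of 0.05 by limma. Such counts, here and below, are given without the share of all probes under that p. The percentages beside them are those of calls. At 12 Gy the irradiated arrays lay below all sham arrays for 10 of 10 genes, against 12.7% of all probes. Without mouse 21 the counts were 0, 2, 7, 9 and 9 and the medians were -0.30, -0.78, -1.76, -2.76 and -3.06.

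**Figure D2:**
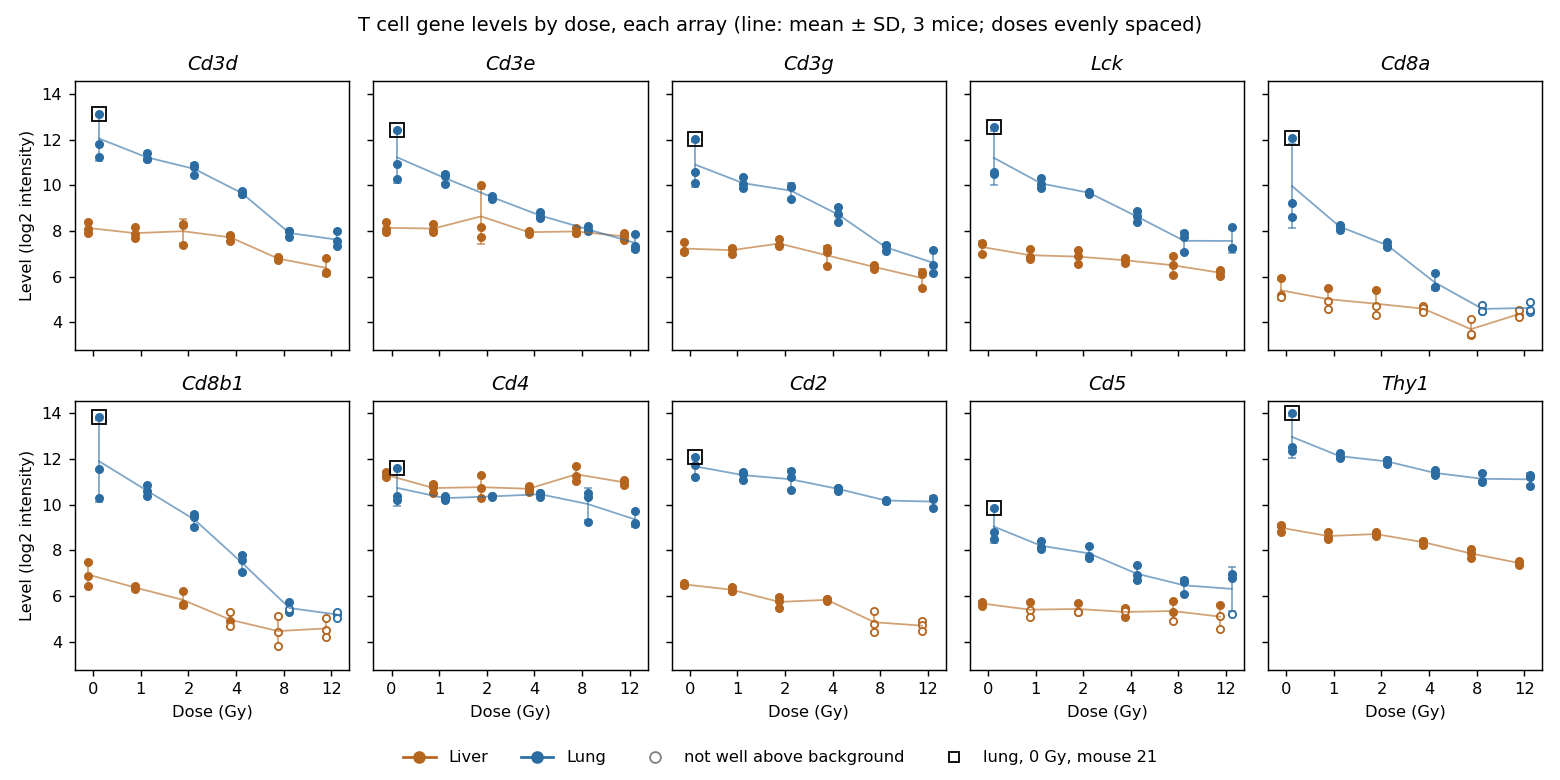
Normalized log2 intensity of each T cell gene against dose (Gy) in liver and lung, 1 point per array, with lines through the dose means and SD as error bars (n = 3). Doses are evenly spaced, open points are not well above background and the square marks mouse 21. All 10 genes are lower at 12 Gy than in sham lung, and the liver lines are flatter for most genes.

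The 3 CD3 genes fell together in lung. *Cd3d* was at 11.22, 11.80 and 13.12 in sham lungs (mice 1, 11 and 21), 11.40, 11.13 and 11.13 at 1 Gy, 10.43, 10.90 and 10.82 at 2 Gy, 9.61, 9.63 and 9.73 at 4 Gy, 7.74, 7.98 and 8.00 at 8 Gy and 7.54, 7.98 and 7.33 at 12 Gy. From 2 Gy on every array was below every sham array, and the change at 12 Gy was -4.43 ± 0.33 (SE, adjusted p = 6.29e-07), a level 21.6-fold lower (-3.90 without mouse 21). *Cd3g*, which pairs with CD3 epsilon in the receptor complex, was at 10.10, 10.58 and 12.02 in sham lungs, 8.37, 8.74 and 9.03 at 4 Gy, 7.36, 7.12 and 7.36 at 8 Gy and 6.49, 7.15 and 6.16 at 12 Gy. Its change was -2.18 at 4 Gy, -3.62 at 8 Gy and -4.30 ± 0.38 (SE, adjusted p = 3.3e-06) at 12 Gy, and -3.75 at 12 Gy without mouse 21. *Cd3e*, whose product is needed for any receptor to reach the surface, was at 10.29, 10.93 and 12.43 in sham lungs, 9.38, 9.50 and 9.53 at 2 Gy, 8.58, 8.82 and 8.63 at 4 Gy, 8.04, 8.19 and 7.98 at 8 Gy and 7.35, 7.86 and 7.19 at 12 Gy. It was the 1 gene called at 2 Gy, by -1.75 ± 0.36 (SE, adjusted p = 0.0437), and its change at 12 Gy was -3.75 ± 0.36 (SE, adjusted p = 9.15e-06), and -3.15 without mouse 21. The call of *Cd3e* at 2 Gy was lost with slide as a random block (adjusted p = 0.579) and when any of 14 of the 18 lung arrays was left out, while without mouse 21 *Cd3e* was called there at -1.14 and *Cd8a* at -1.55.

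*Lck* followed the CD3 genes. It was at 10.47, 10.58 and 12.56 in sham lungs, 9.68, 9.70 and 9.64 at 2 Gy, 8.40, 8.88 and 8.64 at 4 Gy, 7.05, 7.74 and 7.90 at 8 Gy and 7.27, 8.18 and 7.23 at 12 Gy. The groups did not overlap with the sham arrays from 1 Gy on, where the highest irradiated array was at 10.31 and the lowest sham array at 10.47. The change was -3.64 ± 0.43 (SE, adjusted p = 5.51e-05) at 12 Gy, 12.5-fold lower (-2.97 without mouse 21).

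The CD8 chains had the largest falls of the 10 genes in lung, and fell to the limit of measurement. *Cd8b1* was at 10.31, 11.56 and 13.85 in sham lungs, 10.89, 10.38 and 10.62 at 1 Gy, 9.03, 9.60 and 9.44 at 2 Gy, 7.06, 7.56 and 7.78 at 4 Gy, 5.28, 5.73 and 5.41 at 8 Gy and 5.21, 5.30 and 5.05 at 12 Gy. No array at 12 Gy had it well above background, so that the fall there, fitted as -6.72 ± 0.57 (SE, adjusted p = 2.09e-06), is given as at least 97.5-fold (-5.75 without mouse 21). *Cd8a* was at 8.61, 9.23 and 12.06 in sham lungs, 7.27, 7.52 and 7.32 at 2 Gy, 5.52, 6.15 and 5.56 at 4 Gy, 4.50, 4.74 and 4.50 at 8 Gy and 4.43, 4.55 and 4.90 at 12 Gy. It too was not well above background at 12 Gy and was at least 30.2-fold lower, with a fitted change of -5.34 ± 0.57 (SE, adjusted p = 2.26e-05), and -4.29 without mouse 21. Their bounds use the mean of all 3 sham lungs, of which mouse 21 was the highest.

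The other co-receptor gene, *Cd4*, had the smallest change of the 10 in lung at 12 Gy. It was at 10.20, 10.39 and 11.62 in sham lungs, 10.40, 10.19 and 10.28 at 1 Gy, 10.38, 10.35 and 10.37 at 2 Gy, 10.33, 10.53 and 10.52 at 4 Gy, 10.34, 10.51 and 9.25 at 8 Gy and 9.15, 9.72 and 9.19 at 12 Gy. The 4 low arrays among these, the third at 8 Gy and all 3 at 12 Gy, are the 4 arrays of the fifth slide. Its change was -0.28 at 4 Gy and -1.38 ± 0.34 (SE, adjusted p = 0.00997) at 12 Gy, but without mouse 21 it was -0.94 at 12 Gy (adjusted p = 0.0432), which is not a call, and its linear trend went from -1.14 to 0.0063 with slide as a term (adjusted p = 0.999). On the slide shared by 2, 4 and 8 Gy, *Cd4* at 8 Gy was 0.061 above its level at 2 Gy.

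The 3 other surface proteins fell less than the CD3 and CD8 chains. *Cd5* was at 8.49, 8.80 and 9.85 in sham lungs, 6.71, 7.34 and 6.90 at 4 Gy, 6.63, 6.69 and 6.09 at 8 Gy and 6.78, 6.97 and 5.20 at 12 Gy, a change of -2.73 ± 0.40 (SE, adjusted p = 0.000397), and -2.33 without mouse 21. *Thy1* was at 12.35, 12.54 and 14.03 in sham lungs, 11.33, 11.32 and 11.54 at 4 Gy, 11.00, 11.37 and 11.04 at 8 Gy and 11.32, 11.20 and 10.82 at 12 Gy, a change of -1.86 ± 0.31 (SE, adjusted p = 0.00101), and -1.34 without mouse 21. *Cd2* was at 11.21, 11.74 and 12.08 in sham lungs, 10.59, 10.75 and 10.74 at 4 Gy, 10.22, 10.16 and 10.17 at 8 Gy and 9.86, 10.31 and 10.24 at 12 Gy, a change of -1.54 ± 0.23 (SE, adjusted p = 0.000383), and -1.34 without mouse 21. None of the 3 overlapped between 0 and 12 Gy, and *Cd5* was well above background on 2 of the 3 arrays at 12 Gy. At 4 Gy *Cd2* changed by -0.99 (adjusted p = 0.0319), just under the fold threshold, and *Cd5* was called at -2.06 but not without mouse 21 (-1.66, adjusted p = 0.0641). With slide as a random block 4 of the 8 calls at 4 Gy were lost, those of *Cd3g*, *Cd5*, *Lck* and *Thy1*.

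Within the lung, the 0 and 1 Gy arrays shared a slide, and 0 of the 10 genes were called at 1 Gy. The 12 Gy arrays shared a slide with 1 array at 8 Gy. Another slide held arrays of 2, 4 and 8 Gy. On that slide 9 of the 10 genes were lower in the 2 arrays at 8 Gy than in all 3 at 2 Gy, as were 12.4% of all probes, with a median difference of -1.81 and a range from -3.85 (*Cd8b1*) to 0.061 (*Cd4*). Neighbouring doses did not differ by a call for any of the 10 genes, at 2 against 1, 4 against 2, 8 against 4 or 12 against 8 Gy, where 0.00227%, 0%, 0.0091% and 0.161% of all probes were called lower. The median steps were -0.37, -0.96, -0.84 and -0.22, and 2, 7, 5 and 0 genes were below an unadjusted p of 0.05. Without mouse 21, 1 gene was called at 4 against 2 Gy and 2 at 8 against 4 Gy. As a linear trend over 12 Gy all 10 genes were called lower in lung, against 4.31% of all probes, from -1.14 for *Cd4* to -6.68 for *Cd8b1*, and 9 without mouse 21. With slide as a term in the fit the trend was called for *Cd3d* (-4.84) and *Cd3g* (-4.55) alone, while 7 others were between -1.26 and -6.33 without a call.

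In liver 6 of the 10 T cell genes were called lower at 12 Gy. They were *Cd8b1*, *Cd2*, *Cd3d*, *Thy1*, *Cd3g* and *Lck*, with changes from -1.13 to -2.36. At 8 Gy 5 were called lower (*Cd8b1*, *Cd8a*, *Cd2*, *Cd3d* and *Thy1*), at 4 Gy only *Cd8b1*, and none at 1 or 2 Gy, where 2 and 4 genes were below an unadjusted p of 0.05 by limma. Called lower among all probes were 0.0209%, 0.164%, 0.623%, 1.36% and 1.33% from 1 to 12 Gy, and 0.73% were called higher at 12 Gy. The median log2 change of the 10 genes was -0.31, -0.35, -0.60, -0.97 and -1.21, against medians from -0.0031 to 0.010 over all probes. At 12 Gy 9 of 10 genes lay below every sham liver, as did 15.2% of all probes.

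The CD8 genes also fell to the limit of measurement in liver. *Cd8b1* was at 6.44, 7.50 and 6.89 in sham livers, 6.43, 6.29 and 6.39 at 1 Gy, 5.60, 6.23 and 5.66 at 2 Gy, 4.70, 4.89 and 5.29 at 4 Gy, 4.43, 5.15 and 3.82 at 8 Gy and 5.03, 4.50 and 4.21 at 12 Gy. It was not well above background at 12 Gy, where it was at least 4.85-fold lower, with a fitted change of -2.36 ± 0.33 (SE, adjusted p = 0.000613). From 1 Gy on every irradiated liver lay below every sham liver, though at 1 Gy the highest was at 6.432 and the lowest sham liver at 6.436. *Cd8a* was at 5.11, 5.92 and 5.17 in sham livers, 3.46, 4.14 and 3.48 at 8 Gy and 4.30, 4.54 and 4.21 at 12 Gy, and was well above background on 2 of the 3 sham livers and on 4 of the 18 liver arrays. Its change was called at 8 Gy, where it was at least 2.11-fold lower, and stood at -1.05 ± 0.30 (SE, adjusted p = 0.0508) at 12 Gy.

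Among the CD3 genes, *Cd3d* and *Cd3g* fell in liver and *Cd3e* was not called at any dose. *Cd3d* was at 8.39, 8.09 and 7.91 in sham livers, 7.82, 7.79 and 7.55 at 4 Gy, 6.81, 6.84 and 6.71 at 8 Gy and 6.17, 6.80 and 6.18 at 12 Gy, a change of -1.75 ± 0.24 (SE, adjusted p = 0.000497), 3.36-fold lower. *Cd3g* was at 7.51, 7.10 and 7.06 in sham livers, 6.35, 6.40 and 6.50 at 8 Gy and 6.11, 6.20 and 5.48 at 12 Gy, a change of -1.29 ± 0.22 (SE, adjusted p = 0.00219). Both were below all sham livers at 12 Gy. *Cd3e* was at 8.37, 8.08 and 7.95 in sham livers, 8.15, 10.02 and 7.74 at 2 Gy, 7.89, 8.11 and 7.92 at 8 Gy and 7.76, 7.92 and 7.61 at 12 Gy. The liver of mouse 13 at 2 Gy stood above the other 17 for this gene, and the change at 12 Gy was -0.37 ± 0.39 (SE, adjusted p = 0.67), with a 95% interval from -1.21 to 0.46. *Lck* was at 7.46, 7.42 and 6.99 in sham livers and 6.01, 6.26 and 6.22 at 12 Gy, a change of -1.13 ± 0.21 (SE, adjusted p = 0.00469), and -0.80 at 8 Gy (adjusted p = 0.0289), under the fold threshold.

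*Thy1* and *Cd2* changed by -1.54 and -1.81 in liver at 12 Gy, beside -1.86 and -1.54 in lung. *Thy1* was at 9.06, 9.10 and 8.82 in sham livers, 8.42, 8.41 and 8.25 at 4 Gy, 7.66, 8.05 and 7.89 at 8 Gy and 7.37, 7.52 and 7.47 at 12 Gy, a change of -1.54 ± 0.13 (SE, adjusted p = 5.76e-06). *Cd2* was at 6.55, 6.49 and 6.49 in sham livers, 5.89, 5.85 and 5.77 at 4 Gy, 5.32, 4.43 and 4.80 at 8 Gy and 4.92, 4.72 and 4.47 at 12 Gy, where it was not well above background. Its fitted fall there, 3.50-fold (adjusted p = 6.53e-05 by limma), is also its bound. For both genes the 3 livers at 8 Gy and the 3 at 12 Gy all lay below the sham livers. *Cd4* and *Cd5* were not called in liver. *Cd4* was at 11.22, 11.43 and 11.29 in sham livers and 11.08, 11.01 and 10.86 at 12 Gy, with a 95% interval of the change from -0.80 to 0.14, and *Cd5* was at 5.74, 5.56 and 5.72 and 5.61, 4.54 and 5.14, with an interval from -1.13 to -0.014.

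**Figure D3:**
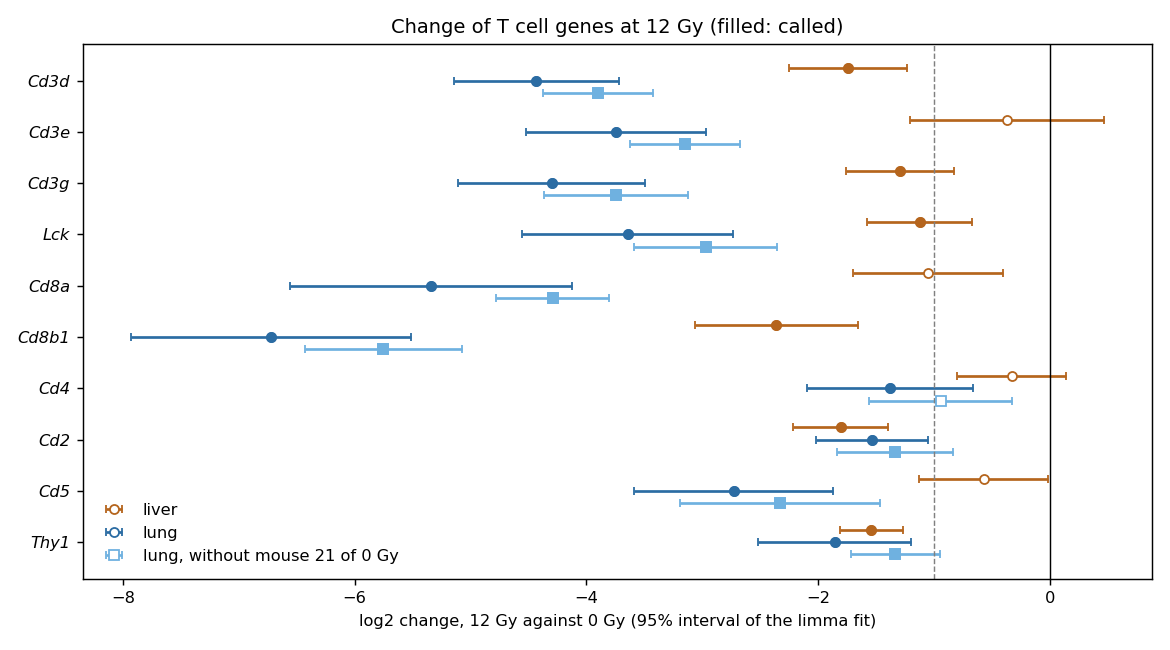
Log2 change at 12 Gy against 0 Gy for each T cell gene in liver, in lung, and in lung without mouse 21 of 0 Gy, with 95% intervals of the limma fit and filled points for calls. Lung has 10 calls with all arrays and 9 without mouse 21, and liver has 6.

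Neighbouring doses did not differ by a call in liver either, where 0%, 0%, 0% and 0% of probes were called lower at the 4 steps from 1 to 12 Gy and 1, 3, 6 and 3 of the 10 genes were below an unadjusted p of 0.05 by limma. As a linear trend over 12 Gy 6 genes were called lower in liver, against 1.13% of all probes. They were *Cd8b1* (-2.30), *Cd3d* (-1.83), *Cd2* (-1.82), *Thy1* (-1.48), *Cd3g* (-1.42) and *Cd8a* (-1.18), while *Lck* was at -0.97 (adjusted p = 0.00107). With slide as a term the calls in liver went from 6 to 3 at 12 Gy (*Cd2*, *Cd3d* and *Thy1*), from 5 to 1 at 8 Gy (*Cd2*) and from 6 to 2 for the trend (*Cd3d* and *Thy1*), with changes of -2.37 for *Cd3d* and -1.61 for *Thy1* at 12 Gy. All arrays of 4 and 8 Gy lay on 1 slide. There the differences of 8 from 4 Gy ran from -0.98 for *Cd2* to 0.63 for *Cd4*. *Cd3e* and *Cd5* were not lower at 8 Gy either. The median was -0.50, against -0.0016 over all probes. An offset of 50 on the background correction, which shrinks changes of dim probes, took the calls at 12 Gy to 3, *Cd2*, *Cd3g* and *Lck* falling under the fold threshold.

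The difference between the tissues was tested directly, as the change in lung minus the change in liver. At 12 Gy the fitted change was lower in lung than in liver by a call for 7 of the 10 genes, against 2.68% of all probes, and higher for none. At 8 Gy 6 were called, against 0.532%, at 4 Gy 2, against 0.175%, and none at 2 or 1 Gy, where the background was 0.0338% and 0.00211% and 7 and 0 genes were below an unadjusted p of 0.05 by limma. Of the 7 called at 12 Gy, 5 were measured at that dose in both tissues. The differences were -3.59 ± 0.56 (SE, adjusted p = 0.000263) for *Cd3e*, -3.03 ± 0.45 (SE, adjusted p = 0.000181) for *Cd3d*, -3.01 for *Cd3g*, -2.70 for *Lck* and -1.81 for *Cd5*, the last well above background on 1 of the 3 livers and 2 of the 3 lungs at 12 Gy. The other 2, *Cd8b1* (-3.83) and *Cd8a* (-3.52), were not well above background on any array of either tissue at 12 Gy. Their differences there are close in size to those between sham lung and sham liver, and whether they fell unequally cannot be read from them. At 8 Gy *Cd8b1* was well above background on 2 of the 3 lungs and on no liver, and the same limit holds for both genes in the trend. For *Thy1* no difference was called at 12 Gy, with an interval from -1.45 to 0.15. *Cd2* was not called either, but its fall in liver has only a lower bound, and no interval is given. In the linear trend 8 genes had a called difference, lower in lung, against 3.62% of all probes, the 7 named and *Cd4* at -1.37. Without the lung of mouse 21 the counts were 1 at 4 Gy, 5 at 8 Gy, 6 at 12 Gy and 8 for the trend, and with slide as a term no gene had a called difference in trend.

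**Figure D4:**
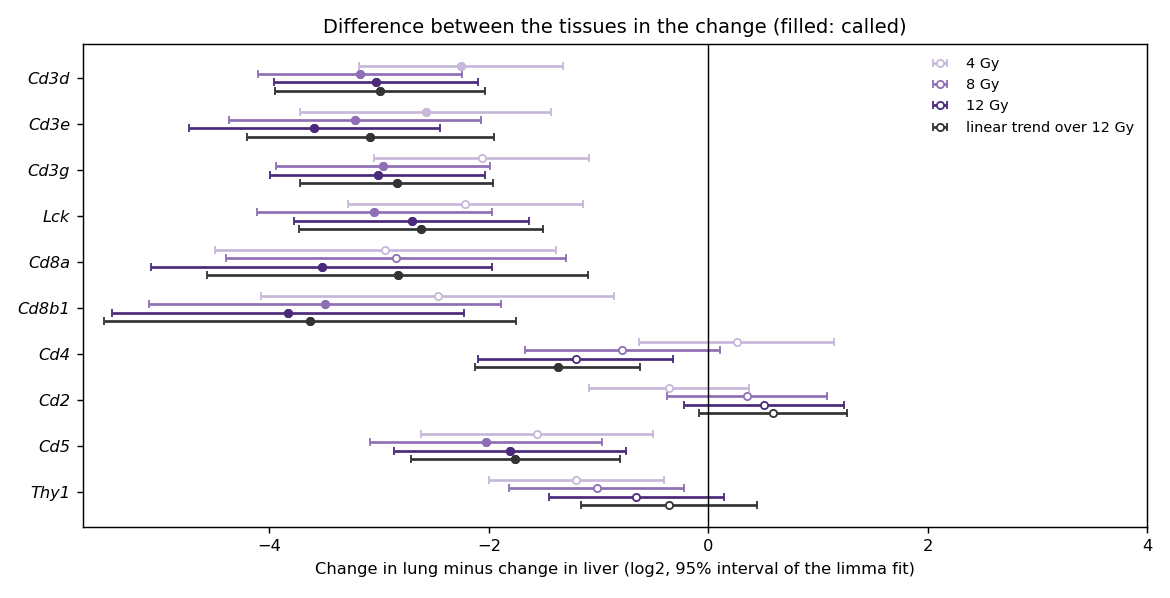
Change in lung minus change in liver (log2) for each T cell gene at 4, 8 and 12 Gy and as a linear trend over 12 Gy, with 95% intervals of the limma fit and filled points for calls. *Cd2* and *Thy1* have no call, and *Cd4* has 1, for the trend.

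Second probes of 5 genes gave the same direction at 12 Gy in lung. They changed by -4.29 for *Cd3d*, -1.58 for *Cd3e*, -1.23 for *Cd4*, -2.87 for *Cd8a* and -3.20 for *Lck*, all called. The 4 other than *Cd3d* were not well above background on any lung array at 12 Gy, and the second *Cd3e* probe was well above background on 8 of the 36 arrays. In liver the second *Cd3d* probe was called at -1.73, the second probes of *Cd3e* and *Cd4* were at 0.49 and -0.24 without a call, and those of *Cd8a* and *Lck* were not tested. The second *Cd4* probe had no call between sham lung and sham liver, at -0.51, where the first was called. In sham liver, with the tissues normalized together, the first had a mean of 11.73 and the second of 5.53. The second was well above background on 1 of those 3 livers, and which probe follows the transcript was not tested.

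Other genes of T cell receptor signalling fell in lung along with the members. Of 25 such genes tested, 18 were called lower at 12 Gy and none higher, with a median of -1.51 (13 and -1.14 without mouse 21), and in liver 2 of 22 were called lower, with a median of -0.60. Of the genes of T cell development and homing, 16 of 24 were called lower in lung, with a median of -1.78 (14 and -1.62 without mouse 21), and 2 of 22 in liver, with a median of -0.72. Over both lists 35 of 49 genes were called at 1 dose or more in lung and 8 of 44 in liver, against 7.77% and 3.17% of all probes. *Gimap3*, a GTPase of lymphocyte survival, was at 10.96, 10.84 and 10.91 in sham lungs and 7.50, 7.15 and 7.46 at 12 Gy, a change of -3.53 ± 0.24 (SE), and -3.54 without mouse 21. The groups did not overlap. *Sit1*, an adaptor that damps the receptor signal, was at least 5.84-fold lower, and *Bcl11b*, a transcription factor of T cell identity, at least 6.14-fold lower, since both were not well above background at 12 Gy. These bounds use the mean of the sham lungs with mouse 21 among them, the highest for both genes. The fitted -2.20 of *Bcl11b* without mouse 21 is a smaller fall than its bound. *Ccr7*, the receptor that guides T cells to lymph nodes, changed by -3.16 ± 0.32, *Cd6*, a relative of CD5, by -3.01 ± 0.33, *Cxcr6*, a receptor of tissue-resident lymphocytes, by -2.75 ± 0.23, and *Rasgrp1*, which links the receptor to Ras, by -2.61 ± 0.35. These 6 genes were called without mouse 21 too, at -2.64 for *Sit1*, -2.20 for *Bcl11b*, -2.97 for *Ccr7*, -2.44 for *Cd6*, -2.62 for *Cxcr6* and -2.21 for *Rasgrp1*. Not called at 12 Gy in lung were the homing genes *Klf2* (0.21) and *S1pr1* (0.50), and *Plcg1* (0.026) and *Nfatc2* (0.62) of the signalling list, several of which are used by cells other than T cells.

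In liver the called pathway genes at 12 Gy were few. *Ccr7* was at 6.67, 6.96 and 7.08 in sham livers and 4.84, 4.06 and 4.84 at 12 Gy, at least 5.01-fold lower. The groups did not overlap. *Skap1*, an adaptor of T cell adhesion, changed by -1.19 ± 0.25 (SE), and *Ccr6*, a chemokine receptor, was at least 1.82-fold lower. *Cxcr3*, *Gata3*, *Satb1* and *Nfatc2* were called at another dose and stood at -0.95, -0.86, -0.71 and -0.68 at 12 Gy. *Satb1* and *Nfatc2* were not well above background there, and their fitted falls, 1.63-fold and 1.61-fold, are also their bounds.

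**Figure D5:**
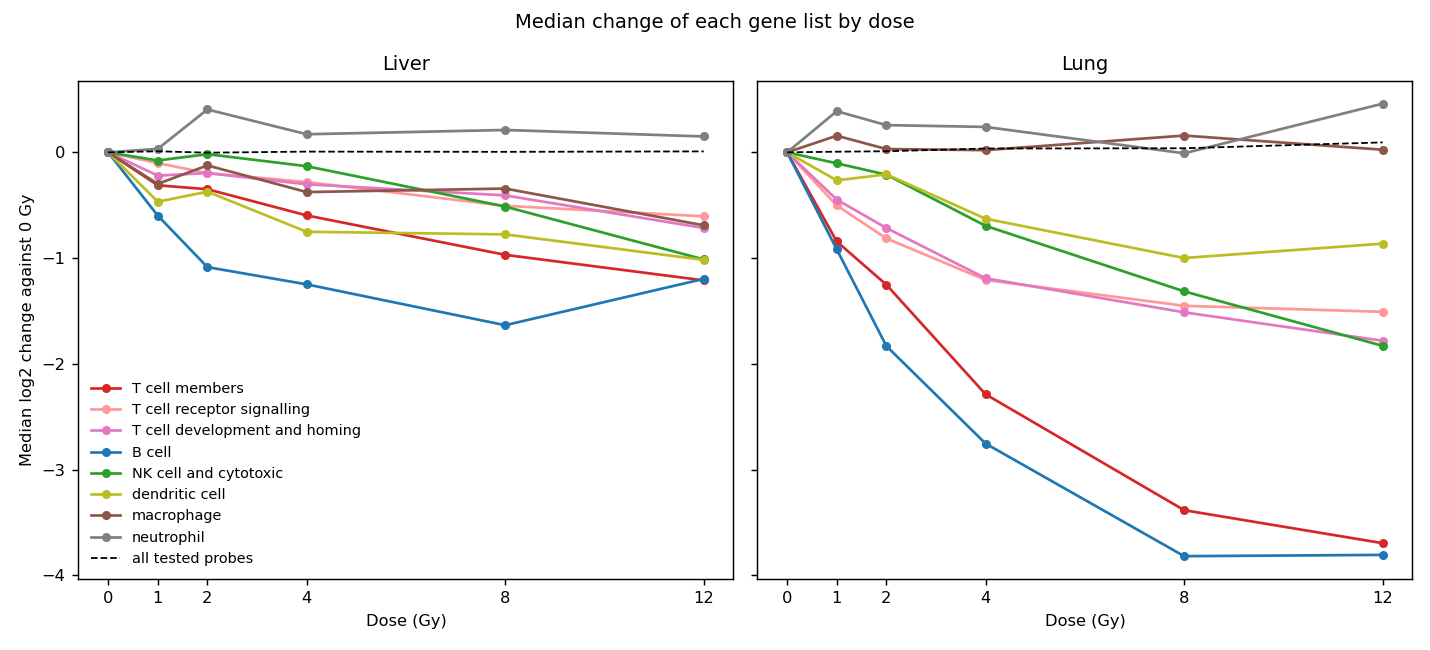
Median log2 change against 0 Gy of the T cell genes (members), the T cell pathway lists and lists of other blood cell types at each dose (Gy) in liver and lung, with all tested probes as a dashed line. In lung the medians at 12 Gy are -3.81 for the B cell list, -3.70 for the T cell genes and 0.025 for the macrophage list.

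Markers of other lymphocytes moved with the T cell genes. Of 15 B cell genes tested in lung 13 were called lower at 12 Gy, with a median of -3.81, among them *Fcmr* (-6.00) and *Ms4a1* (-5.85), and 13 were called without mouse 21. In liver 8 of 14 were called lower, with a median of -1.20, among them *Ms4a1* (-3.70) and *Fcmr* (-3.23). These 2 are fitted values without a bound, of genes well above background on 8 and 6 of the 18 liver arrays. The summed level of the B cell list was 14.64 to 15.69 in sham lungs and 12.23 to 12.57 at 12 Gy, and 10.77 to 11.09 and 9.39 to 9.48 in livers. Of 14 NK and cytotoxic genes 12 were called lower in lung (13 without mouse 21), with a median of -1.83, and 6 of 12 in liver, with a median of -1.01. In both tissues they held *Gzma* (-1.89 in lung, -1.83 in liver) and *Nkg7* (-2.24 and -1.31), which cytotoxic T cells also use. The summed level of this list was 14.74 to 14.86 in sham lungs and 12.48 to 13.28 at 12 Gy, and 11.22 to 11.55 and 9.95 to 10.30 in livers. The summed level of the T cell genes themselves was 14.05 to 16.07 and 12.04 to 12.45 in lung, and 11.97 to 12.15 and 11.30 to 11.49 in liver, sums in which brighter probes weigh more. All 15 B cell genes were well above background on at least 5 of the 18 lung arrays, while in liver *Blk*, *Eomes* and *Klri2* were not well above background on any array. What part these cells have in the change of the shared genes was not tested.

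Genes of dendritic cells, some of which also use *Cd4* and *Cd8a*, were called lower in both tissues. Of 9 tested 4 were called lower in lung and 5 in liver, with medians of -0.86 and -1.02. In liver *Batf3*, *Clec9a* and *Siglech* were well above background on 18 of 18 arrays. *Itgax* was so on 10, *Cd209a* on 6, *Flt3* and *Zbtb46* on 3 each, and *Snx22* and *Xcr1* on 2 each. The summed level of this list was 14.36 to 15.32 in sham lungs and 11.59 to 13.38 at 12 Gy, without overlap, and 12.65 to 12.88 and 12.63 to 13.24 in livers. In lung it was 14.16 to 14.77 at 4 Gy and 13.09 to 14.67 at 8 Gy. All 12 Gy lungs lay on the fifth slide, so dose and slide cannot be told apart there. What part dendritic cells have in the changes of *Cd4* and *Cd8a* was not tested. Of 13 macrophage genes 0 were called in lung and 1 was called lower in liver, with medians of 0.025 and -0.69. In lung 1 neutrophil gene of 14 was called lower and 2 higher (0 and 4 without mouse 21), and in liver 1 lower and 1 higher of 13. No alveolar or airway gene of 12 was called in lung and no hepatocyte gene of 15 in liver, with medians of 0.035 and 0.015. Of 9 fibroblast genes, cells that also use *Thy1*, 0 were called in lung and 1 was called lower in liver. Of 12 erythroid genes tested 4 were called lower in lung (2 without mouse 21) and 2 of 10 in liver. Of 18 p53 target genes 13 were called higher in lung and 11 in liver, with medians of 1.60 and 1.61. *Alb*, made by hepatocytes, ranged from 6.88 to 14.7 among the lung arrays, and the part of liver RNA in them was not tested.

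The genes most like the mean of *Cd3d*, *Cd3e* and *Cd3g* over the 18 arrays of a tissue were sought by the root mean square difference of levels, each centred on its own mean, among genes measured in all sham arrays. In lung, where that mean had an SD of 1.57 over the arrays, they included *Ptprcap* (0.315), *H2-Oa* (0.345), *Ccr7* (0.394), *Ltb* (0.412) and *P2ry10* (0.441), out of 20957 probes. Among the T cell genes themselves *Lck* was at 0.329 and *Cd5* at 0.627, while *Thy1* (0.905), *Cd2* (0.953), *Cd8b1* (1.09) and *Cd4* (1.17) were less alike. In liver, where the SD was 0.531, they were *Cd52* (0.215), *Batf2* (0.222), *Nkg7* (0.224), *Ctsw* (0.230), *Rtp4* (0.231) and *Icos* (0.233), out of 18689 probes, and of the T cell genes *Thy1* was at 0.251 and *Lck* at 0.314. The arrays of a tissue share slides and normalization, and these values are a description. *Ptprcap* fell by 3.64 in lung at 12 Gy and *Ltb* by 3.86, while in liver *Cd52* fell by 1.28 and *Nkg7* by 1.31.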

How the data were processed

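RNA of 18 liver and 18 lung pieces was hybridised to 1-colour Agilent mouse arrays and read by the authors with Agilent Feature Extraction 11.5.1.1. The authors deposited the scanner tables, of which the median pixel intensities of spots and of the local background around them, linear and not normalized, were used here. Each tissue was background-corrected by normexp with an offset of 0 and quantile-normalized, and both tissues were also normalized together for comparisons between them. Control spots and outlier flags were left out (a probe needed 0.5 of its spots), spots of a probe were averaged, and no spot was saturated. A probe was tested where 1 array or more of the tissue showed it well above background. Of 59305 spots, 46.1 to 54.0% were well above background in liver and 54.1 to 64.0% in lung. Within lung, the arrays of the fifth slide, which held all 12 Gy lungs, were at 54.1 to 54.8%. All other lung arrays were at 59.2 to 64.0%. At 8 Gy the lung on the fifth slide was at 54.8%, and the other 2 were at 63.8 and 60.5%. All 12 Gy lungs lay on the fifth slide, and the part that dose has in their lower share was not tested. Precision is limited by how many arrays there are. Probes were named through RefSeq identifiers, which matched 34566 of 56605 probes, while 9009 with Ensembl transcript names were not matched.

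Levels were tested on the log2 scale with limma 3.58.1 in R 4.3.3, with 1 coefficient per dose or with dose as a linear term, and p-values were adjusted by Benjamini-Hochberg over all probes tested. The scripts were tested on simulated data. A gene with several probes is given by the probe well above background on most arrays, ties by mean level. Pathway genes are named where called at 1 dose or more, up to 8 per tissue by the change at 12 Gy, and 6 genes per tissue by likeness, except that some genes these rules pick are not reported here. Outside the lists of other cell types, whose values are fitted, a fall to a group that was not well above background is given as a bound. For it, each array of that group took the higher of its own level and the lowest signal well above background on that array. Where its own levels were the higher, as for *Cd2* and *Ccr7* in liver at 12 Gy, the bound equals the fitted fold change. The bounds leave no room for the spread between mice. The summed level of a list is the log2 of its summed linear intensities. The members and lists were chosen with earlier results of these data known, and leaving out mouse 21 or the fifth slide was chosen as a result to print after the data were seen.

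The samples are separate mice by their numbers, and p-values measure the spread between them. Numbers shared by liver and lung did not meet the rule for pairing, a correlation over 0.1 in every pair: over 18 pairs the correlation of deviations was -0.14 to 0.25, and over 0.1 in 3. The deposited processed signal and the authors' series values, a table of processed intensity on a linear scale, were alternatives. The miRNA arrays of the series were not used here.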

Additional observations from a re-analysis of the deposited data

Results flagged for a closer look

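In each of these results the fitted change in lung differed from that in liver by limma's test of the difference itself. At 4 Gy the change in lung minus that in liver was -2.25 for *Cd3d* and -2.57 for *Cd3e*. At 8 Gy it was -3.17 for *Cd3d*, -3.22 for *Cd3e*, -2.96 for *Cd3g*, -2.03 for *Cd5*, -3.49 for *Cd8b1* and -3.04 for *Lck*. At 12 Gy it was -3.03 for *Cd3d*, -3.59 for *Cd3e*, -3.01 for *Cd3g*, -1.81 for *Cd5*, -3.52 for *Cd8a*, -3.83 for *Cd8b1* and -2.70 for *Lck*. In the linear trend over 12 Gy it was -2.99 for *Cd3d*, -3.08 for *Cd3e*, -2.84 for *Cd3g*, -1.37 for *Cd4*, -1.76 for *Cd5*, -2.83 for *Cd8a*, -3.63 for *Cd8b1* and -2.62 for *Lck*. *Cd8a* and *Cd8b1* were not well above background in either tissue at 12 Gy, nor was *Cd8b1* in liver at 8 Gy, so that these values, their trends included, do not show unequal falls. The differences share the sham arrays of both tissues, and the lung of mouse 21 is among them.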

How the results depend on the processing

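The numbers of T cell genes called were recomputed under each alternative. With slide as a term, estimable for part of the comparisons, calls went from 6 to 3 in liver at 12 Gy, from 5 to 1 at 8 Gy, from 1 to 0 at 4 Gy and from 6 to 2 in the liver trend, from 10 to 2 in the lung trend and from 8 to 0 in the difference of trends, and the lung trend of *Cd4* turned to 0.0063. With slide as a random block they went from 1 to 0 in lung at 2 Gy, from 8 to 4 at 4 Gy and from 2 to 0 in the difference between the tissues at 4 Gy, and with mouse 21 left out of the lung as well to 0 at 2 Gy, 4 at 4 Gy, 1 for 4 against 2 Gy and 2 for 8 against 4 Gy. An offset of 50 gave 3 in liver at 12 Gy, 2 at 8 Gy and 3 in the trend, 3 in lung at 2 Gy and 6 in the difference at 4 Gy. The 1 call in lung at 2 Gy became 0 without the fifth slide or with no filter, 2 with scaling to the 75th percentile, 3 with a filter of 3 arrays and 6 with liver and lung fitted together, which also gave 1 for 8 against 4 Gy in each tissue. The 2 calls of the difference at 4 Gy became 4 with outlier spots kept or with a filter of 3 arrays, 1 with the processed signal and 0 without mouse 21 in both tissues, and the mean of a gene's probes gave 1 at 2 Gy in place of 0. The cause of these moves was not tested. The other counts stayed within 1.5 times under every alternative run, the authors' series values included.

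Leaving out 1 array at a time gave 6 to 7 calls in liver at 12 Gy, 5 to 6 at 8 Gy, 1 to 1 at 4 Gy, 6 to 7 in the trend and 0 to 1 for 8 against 4 Gy (1 without mouse 5 of 8 Gy). In lung it gave 9 to 10 at 12 Gy, 9 to 9 at 8 Gy, 7 to 9 at 4 Gy, 0 to 4 at 2 Gy (4 without mouse 1 of 0 Gy, 2 without mouse 21), 9 to 10 in the trend, 0 to 1 for 12 against 8 Gy (1 without mouse 25 of 8 Gy), and 0 to 1 for 4 against 2 Gy and 0 to 2 for 8 against 4 Gy (both highest without mouse 21). In the difference between the tissues it gave 6 to 8 at 12 Gy, 4 to 7 at 8 Gy, 8 to 8 in the trend, 10 to 10 at 0 Gy and 0 to 1 at 2 Gy (1 without the lung of mouse 1 or the liver of mouse 23). At 4 Gy it gave 0 to 7, with 7 and 4 without the sham lungs of mice 1 and 11, 1 without that of mouse 21, the sham liver of mouse 1 or any of the 4 Gy lungs, and 0 without the sham liver of mouse 11 or 21 or the 4 Gy liver of mouse 4 or 14.

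The mouse number as a replicate block changed 0 of 70 calls of the comparison between the tissues, with 7 genes called at 12 Gy and 8 in the trend. In that check 8 of 18 arrays correlated best with their own number and 3 of 18 pairs were over 0.1, so that the rule for pairing was not met. Signal over background limits the falls of *Cd8a* and *Cd8b1* in both tissues and of *Cd2* in liver, which reached the background at the high doses.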

Other observations

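The B cell genes were called at lower doses than most T cell genes. In lung 9 of 15 were called lower at 2 Gy and 12 at 4 Gy, with medians of -1.83 and -2.75, and in liver 4 of 14 at 2 Gy and 8 at 4 Gy, with medians of -1.09 and -1.25. The NK and cytotoxic genes were called at higher doses, with 0 of 14 at 2 Gy, 2 at 4 Gy and 10 at 8 Gy in lung, and 0 of 12 at 4 Gy and 2 at 8 Gy in liver. A difference between these lists in the dose of response was not tested. In sham animals 13 of 15 B cell genes and 9 of 14 NK and cytotoxic genes were called higher in lung than in liver, as were 19 of 25 genes of T cell receptor signalling.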
